A study of Mus musculus with 4 samples.

Results

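The genes described here encode the subunits of the mitochondrial respiratory chain and of ATP synthase in mouse. They were taken by symbol: genes of complex I (mt-Nd, Ndufa, Ndufb, Ndufc, Ndufs and Ndufv), complex II (Sdha to Sdhd), complex III (mt-Cytb and Uqcr), cytochrome oxidase or complex IV (mt-Co and Cox4 to Cox8), and ATP synthase or complex V (mt-Atp and Atp5), without assembly factors (Ndufaf) and without symbols ending in -ps. The rule gave 97 of the 32285 genes in the count tables. Of these, 13 are encoded by mitochondrial DNA and 84 by nuclear chromosomes. Complex I held 37 nuclear-encoded and 7 mitochondrially encoded members, complex II 4 and 0, complex III 8 and 1, complex IV 18 and 3, and complex V 17 and 2. Members were assigned to complexes by symbol alone here and below, so Ndufa4 and Ndufa4l2 are counted with complex I and Cox7a2l with complex IV. The 13 mitochondrially encoded members were all the genes with an mt- symbol in the tables.

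Single-cell RNA was read from 4 droplet libraries, 1 for lung and 1 for blood in each of a metastasis arm and a sham arm. The animals were C57/Bl6 females aged 6 to 8 weeks. On day 0 the metastasis arm received 800000 B16F10 cells (a mouse melanoma line) into the spleen, a route that seeds the liver, and the sham arm received saline. The spleen was removed at once in both arms, and all mice also received 250000 B16F10 cells under the skin, so that every library came from splenectomised mice with a subcutaneous tumour. Tissue was taken on day 7 and enriched for CD45-positive leukocytes. How many mice each library pools is not stated in the labels. With 1 library per arm and tissue there is no replicate check, so no test across mice was possible, and every interval below is a 95% interval that covers counting error only.

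Electrons from nutrients enter the chain through complexes I and II, pass through complex III and reach oxygen at complex IV. Complexes I, III and IV pump protons, and complex V uses the proton gradient to make ATP. Mitochondrial DNA is transcribed as long strand-wide transcripts that are cut into single messages, while nuclear-encoded subunits are made in the cytosol and imported, so that each complex except complex II draws on both genomes. Circulating neutrophils are known for few mitochondria and a reliance on glycolysis, lymphocytes and monocytes for more oxidative metabolism, and maturing red cells lose their mitochondria.

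Respiratory chain genes have no single shared promoter sequence, and the upstream sequences below show what the nuclear genes that stood out in these libraries carry. RefSeq promoter windows (GRCm38.p6, 250 bases before to 50 after the start) matched 68 of the 84 nuclear-encoded members. The palindromic site of nuclear respiratory factor 1 (NRF1), a factor known to bind many respiratory chain promoters, was searched as GCGCATGCG on both strands. It was found in 8 of the 68 (11.8%; Atp5g2, Atp5k, Atp5l, Cox6a1, Ndufa8, Ndufa11, Uqcr11 and Uqcrc1) and in 527 of 27025 genes with a window (1.95%). An ETS site searched as CCGGAAGT was in 5 of the 68 (7.35%) against 4.31% of all genes, and a YY1 site searched as AAGATGGCG in 7 (10.3%) against 1.64%. Uqcr11 held both the NRF1 and the ETS letters. A match is a description of the letters only. The 250 bases upstream of Ndufa11, an accessory subunit of complex I, and of Cox6b2, the alternative form of Cox6b1 in complex IV known from testis, are shown because these 2 members had the highest ratios in blood neutrophils. Capitals mark the NRF1 match on either strand, which of these 2 windows only that of Ndufa11 holds.
Ndufa11 (GRCm38.p6, chr17:56717512-56717761, plus strand): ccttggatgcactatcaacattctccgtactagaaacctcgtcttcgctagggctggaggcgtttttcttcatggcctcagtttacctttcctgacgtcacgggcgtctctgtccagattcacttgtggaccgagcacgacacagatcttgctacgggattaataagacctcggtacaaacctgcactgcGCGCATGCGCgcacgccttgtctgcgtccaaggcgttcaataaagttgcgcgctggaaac
Cox6b2 (GRCm38.p6, chr7:4753095-4753344, minus strand): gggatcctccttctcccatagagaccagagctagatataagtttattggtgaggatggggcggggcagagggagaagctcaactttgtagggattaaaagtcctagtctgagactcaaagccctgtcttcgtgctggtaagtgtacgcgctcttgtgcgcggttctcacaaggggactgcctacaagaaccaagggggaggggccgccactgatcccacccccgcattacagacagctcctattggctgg

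The libraries held 112079231 to 132540945 UMIs (counted RNA molecules), of which 43.7% to 78.6% were haemoglobin. Barcodes with at least 200 genes and at most 10% mitochondrial UMIs numbered 8597 to 14132 per library. This cap acts directly on the mitochondrially encoded members: it removed 83 and 41 barcodes of metastasis lung and blood (0.617% and 0.475%) and 583 and 258 of sham lung and blood (3.96% and 1.94%). Cells were placed in a class by at least 3 distinct marker genes and at least 2 times as many as of any other class, and are called gated below. Pairs of libraries shared 109 to 316 barcodes, 34 to 52 of them among the barcodes kept. Levels are UMIs per 1000000 UMIs of the class without haemoglobin (CPM). UMIs are not scaled by transcript length, so levels are compared between classes and libraries for the same gene or set and not between genes.

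Neutrophil-gated cells had the lowest levels of both sets among the leukocytes, and the deficit was much deeper for the mitochondrially encoded set. That set summed to 3514 CPM in metastasis lung neutrophils, 7025 in sham lung, 4629 in metastasis blood and 5808 in sham blood. In B cells it was 35408, 43507, 38527 and 43174 CPM in the same order, and in T cells 31637, 38121, 30764 and 36594 CPM. NK cells lay lower at 21343, 25047 and 22395 CPM in metastasis lung, sham lung and sham blood, near classical monocytes (22512 to 24642 CPM) and non-classical monocytes (17502 to 19438 CPM). The order B, T, then NK cells and monocytes, then neutrophils held in each library. Classical monocytes lay above NK cells in the 2 libraries where both were compared. With 1 library per group these differences cannot be set against a spread between mice.

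**Figure D1:**
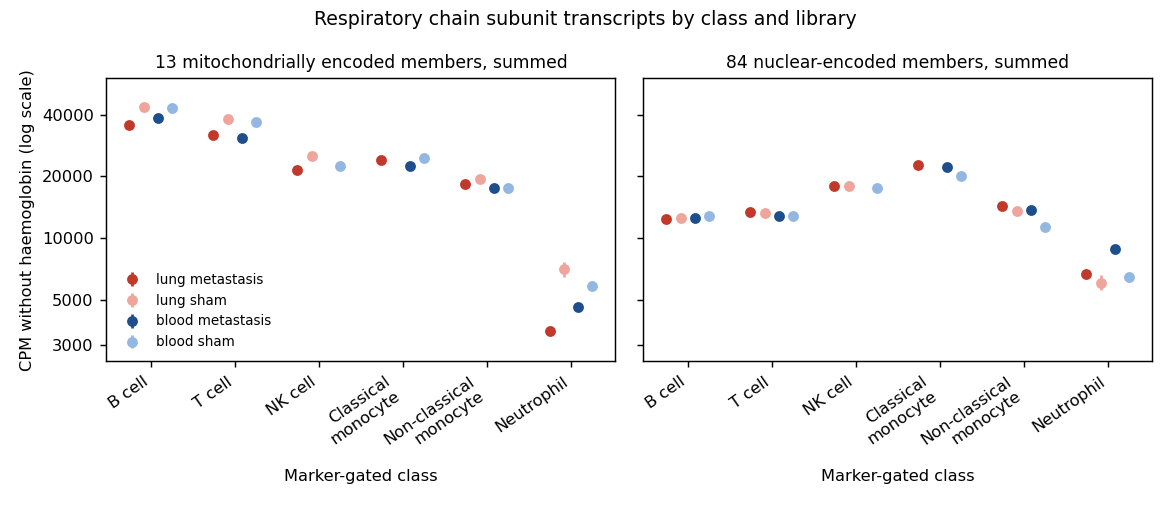
Summed CPM without haemoglobin (log scale) of the 13 mitochondrially encoded members (left) and the 84 nuclear-encoded members (right) in 6 gated classes; each point is 1 library, with its 95% Poisson interval where wider than the point. Neutrophils lie lowest in both panels, and the sham points lie above the metastasis points of the same tissue in the left panel for B and T cells.

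The nuclear-encoded set spread over a smaller range. It summed to 12376 to 12768 CPM in B cells and 12734 to 13435 CPM in T cells, so lymphocytes with very high mitochondrial transcript levels had no excess of nuclear-encoded subunit transcripts. Classical monocytes were highest, with 22808 CPM in metastasis lung, 22196 in metastasis blood and 19960 in sham blood, and NK cells followed with 17533 to 17974 CPM. Neutrophils had 6674 CPM in metastasis lung, 6064 in sham lung, 8879 in metastasis blood and 6489 in sham blood. Mitochondrially encoded UMIs per nuclear-encoded UMI were thus 2.86 to 3.46 in B cells, 2.35 to 2.89 in T cells and 1.01 to 1.23 in classical monocytes. In neutrophils this ratio was 0.526 and 0.521 in metastasis lung and blood and 1.16 and 0.895 in sham lung and blood.

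Member by member the neutrophil deficit was broad. Of the members with at least 10 CPM in some compared class of a library, all 13 mitochondrially encoded ones were lowest in neutrophils in metastasis lung, metastasis blood and sham blood, and 12 of 13 in sham lung. Of the nuclear-encoded ones, 69 of 77 in metastasis lung, 70 of 76 in sham lung and 70 of 77 in sham blood were lowest in neutrophils. In metastasis blood this was so for 54 of 77. The exceptions there included Cox4i1, Cox5b and Cox8a of complex IV, Sdhb of complex II and Ndufa8, Ndufb7 and Ndufv3 of complex I. In metastasis blood the median nuclear-encoded member stood at 0.554 times its B cell level and the median mitochondrially encoded member at 0.091 times. Sham lung neutrophils held only 89540 UMIs without haemoglobin, so members with few or no UMIs, such as Atp5g3 with 0, count as lowest there.

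The c subunits of ATP synthase, which form its rotating ring and are made from the 3 genes Atp5g1, Atp5g2 and Atp5g3, were lower in neutrophils than in B cells. In metastasis lung and metastasis blood Atp5g2 had the lowest ratio of neutrophils to B cells of the nuclear-encoded members, at 0.0825 and 0.133. Atp5g2 was at 29.2 CPM in metastasis lung neutrophils, 54.8 in metastasis blood and 39.3 in sham blood, with 1 UMI in sham lung, against 325 to 413 CPM in B cells. Atp5g1 was at 27.0, 43.7 and 17.8 CPM in the same 3 neutrophil groups and at 162 to 173 CPM in B cells. Atp5g3 was at 34.1, 50.5 and 24.5 CPM against 128 to 143 CPM in B cells. In sham lung neutrophils Atp5g1 had 1 UMI and Atp5g3 had 0.

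Of the tissue-restricted alternative forms listed, Cox4i2, Cox6a2, Cox7a1, Cox8b and Ndufa4l2 had few or no UMIs in leukocytes. Cox6b2 was detected in metastasis blood and metastasis lung neutrophils and is described further on. Cox4i2, the form known from lung and low-oxygen settings, had 9 UMIs over all leukocyte classes described and 2 UMIs (25.2 CPM) in lung endothelial-gated cells of the sham arm. Cox8b had 0 UMIs in every class described, Ndufa4l2 had 1 UMI over the leukocyte classes, and Cox7a1, a muscle form, stayed at or below 3.9 CPM. Cox6a2, another muscle form, had 17.7 and 29.6 CPM in lung epithelial-gated cells (10 and 7 UMIs). The common forms carried the signal: Cox4i1 had 547 to 608 CPM in B cells and 1098 to 1273 in classical monocytes, and Cox8a 402 to 479 and 698 to 832. Cox6a1 and Cox6b1, the common forms of their pairs, were at 149 to 186 and 224 to 255 CPM in B cells, Cox7a2 at 207 to 218 and Ndufa4 at 203 to 266.

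Metastasis and sham libraries differed in lymphocytes by a lower level of the mitochondrially encoded set, with little difference in the nuclear-encoded set. In lung the log2 ratio of metastasis over sham was -0.30 in B cells (interval -0.31 to -0.29), -0.27 in T cells (-0.28 to -0.26) and -0.23 in NK cells (-0.25 to -0.21). In blood it was -0.16 in B cells (-0.17 to -0.16) and -0.25 in T cells (-0.26 to -0.24). Monocytes varied, with -0.13 in blood classical, -0.09 in lung non-classical and -0.001 in blood non-classical monocytes. The nuclear-encoded set differed by -0.02, 0.03 and 0.00 in lung B, T and NK cells and by -0.03 and 0.01 in blood B and T cells. Of the 13 mitochondrially encoded members, 13 were below 0 in lung B cells, 13 in lung T cells, 12 in lung NK cells, 10 in blood B cells and 11 in blood T cells. The highest of those above 0 was mt-Nd6 in blood B cells, at 0.32 (0.12 to 0.51). Over the leukocyte classes other than neutrophils the median was -0.25 in lung and -0.15 in blood for the mitochondrially encoded set. For the nuclear-encoded set it was 0.01 and 0.08. Barcodes removed by the mitochondrial cap were more frequent in the sham libraries, and sham cells were deeper, with a median of 3750 UMIs per lung T cell against 2904, and 5518 per blood T cell against 3789. Among cells of 1000 to 4000 UMIs the shift was -0.27 in T cells of both tissues, -0.32 in lung B cells and -0.20 in blood B cells.

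The shift was uneven along the mitochondrial genome. A member counted as measured when the 2 libraries together held 100 or more UMIs and averaged 10 CPM or more, and as called with a ratio of 1.5-fold or more and an interval that excluded equality. mt-Nd3, a small core subunit of complex I (chrM:9459-9806 in GRCm38, plus strand, protein coding), was the most lowered member in T, B and NK cells and in classical monocytes. In T cells mt-Nd3 had 429 CPM in metastasis lung and 694 in sham lung, and 443 CPM in metastasis blood and 727 in sham blood. Its log2 ratio was -0.69 in lung (-0.76 to -0.63) and -0.72 in blood (-0.81 to -0.62). It was the only member called in T cells of either tissue, where 0.175% of all measured genes in lung and 1.18% in blood were called lower.

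In B and NK cells the mt-Nd3 ratio was below 0 as well, and nearer to 0 than in T cells. mt-Nd3 stood at 496 CPM in metastasis against 740 in sham for lung B cells, 576 against 844 for blood B cells and 336 against 485 for lung NK cells. These are log2 ratios of -0.58, -0.55 and -0.53, short of the 1.5-fold rule. In blood classical monocytes mt-Nd3 had 269 CPM against 421 and was called lower (-0.65, -0.87 to -0.43), where 3.9% of all measured genes were. mt-Nd2 and mt-Nd1, further core subunits of complex I, came next with -0.48 and -0.35 in lung T cells. mt-Co1, the catalytic core of complex IV (chrM:5328-6872, plus strand), and mt-Nd5 (chrM:11742-13565, plus strand) were nearly level there at -0.09 and -0.04. In blood mt-Nd5 was positive, at 0.21 in B cells, 0.18 in T cells and 0.41 in classical monocytes, while the set was negative. Neither position along the genome nor complex ordered the members: mt-Nd5 belongs to complex I as mt-Nd3 does, and mt-Nd4l, which follows mt-Nd3 on the genome, was at -0.03.

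**Figure D2:**
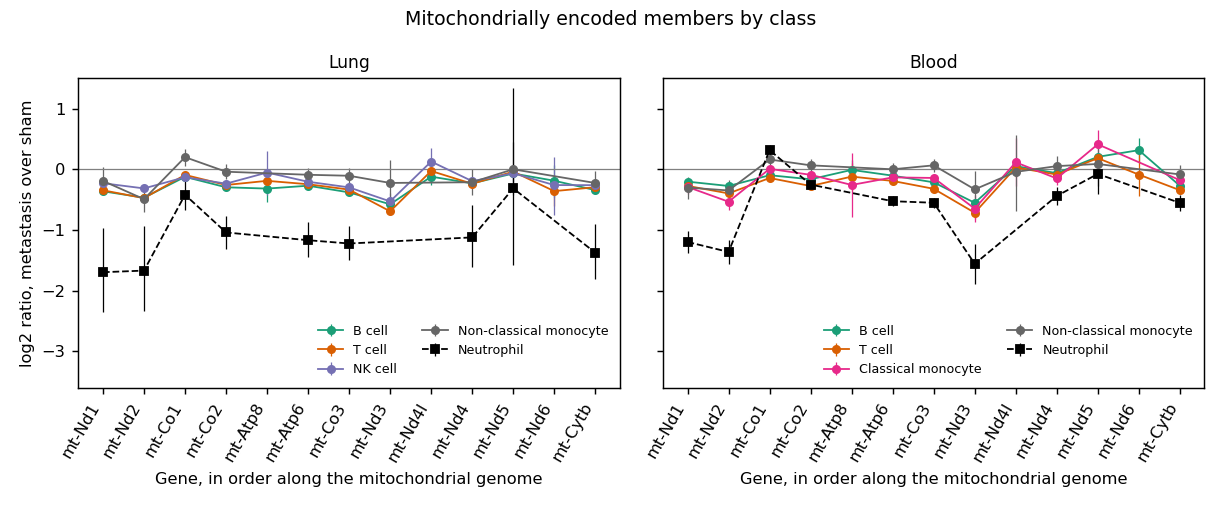
Log2 ratio of metastasis over sham for each measured mitochondrially encoded member, in order along the mitochondrial genome, in lung (left) and blood (right); each colour is a gated class and bars are 95% counting intervals. mt-Nd3 is the lowest point of the lymphocytes, at -0.69 and -0.72 in T cells, and mt-Co1 stands above its neighbours mt-Nd2 and mt-Co2 in neutrophils.

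Nuclear-encoded members hardly moved in lymphocytes. In lung T cells 69 of 76 measured members lay within 0.2 of 0 on the log2 scale, in lung B cells 59 of 76, in lung NK cells 66 of 76, in blood B cells 61 of 76 and in blood T cells 60 of 76. None was called in any of these comparisons. Of all measured genes 1.09%, 0.874% and 1.1% were called higher and 0.551%, 0.175% and 1.08% lower in lung B, T and NK cells. In blood B and T cells 1.21% and 3.55% were called higher and 0.82% and 1.18% lower. In blood classical monocytes 1 of 75 was called higher, where 5.1% of all measured genes were: Ndufv2, a core subunit of complex I, at 164 CPM against 97.8 (log2 ratio 0.74, 0.37 to 1.12). In blood non-classical monocytes 7 of 57 were called higher and 0 lower, against 4.93% and 5.45% of all measured genes, among them Atp5g3 (173 against 83.6 CPM, log2 ratio 1.05), Uqcrb (215 against 116) and Atp5d (265 against 152). That class held 67 and 135 cells. The 7 calls became 0, and the set log2 ratio of 0.27 became -0.12, over cells of 1000 to 4000 UMIs, and they became 0 and 0.025 without cells with 2 or more markers of any other class. Under the stricter gate 2 were called, with no share over all measured genes computed for that gate. In lung non-classical monocytes Atp5d, a subunit of the central stalk of complex V, was the 1 member of 46 called higher (279 against 164 CPM) and 0 were called lower, where 4.5% and 2.97% of all measured genes were.

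Neutrophils showed the largest differences of the leukocytes, in opposite directions for the 2 genomes. In blood the mitochondrially encoded set had a log2 ratio of -0.33 (-0.36 to -0.29) and the nuclear-encoded set 0.45 (0.42 to 0.49), over 2269 metastasis and 422 sham cells. In lung the ratios were -1.0 (-1.12 to -0.88) and 0.14 (0.01 to 0.26), over 1126 and 41 cells. The 41 sham lung neutrophils are below the minimum of 50 cells applied to the other classes and make the lung ratio the least certain one. S100a8, a neutrophil gene not used by the gate, was at 86263 CPM in metastasis lung, 74860 in sham lung, 61881 in metastasis blood and 28806 in sham blood neutrophils. The summed gate markers were lowest in sham blood too, at 17648 CPM against 34186 to 37823. Csf3r, which is among these markers, went the other way and was highest in sham blood. In neutrophils with at most 2% mitochondrially encoded UMIs it had 3636 CPM there and 1630 in metastasis blood. In lung such cells had 1261 CPM of Csf3r in sham and 870 in metastasis. Epithelial markers in lung neutrophils summed to 4161 CPM in metastasis and 391 in sham (1 and 8 of 9 markers at 0), and their part in the lung ratios was not tested.

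The negative ratios of the mitochondrially encoded set rested on a small number of cells. In sham blood 24 of 422 neutrophils (5.69%) had over 2% mitochondrially encoded UMIs, and these held 50.3% of all such UMIs of the class. In sham lung 4 of 41 cells (9.76%) held 52.8% of them. In metastasis blood 30 of 2269 cells (1.32%) held 8.8%, and in metastasis lung 8 of 1126 cells (0.71%) held 6.21%. Among the cells at or below 2% the set had 4263 CPM in metastasis blood and 3083 in sham blood, a log2 ratio of 0.47 (0.42 to 0.52), which turned the direction. In lung those cells had 3316 and 3636 CPM, a log2 ratio of -0.13 (-0.30 to 0.04). The 2% limit was chosen after the values were seen and acts on the measured quantity itself, so these ratios are a description of the bulk of the cells.

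The median cell differed in the same direction as the cells up to 2%, and in lung by more (log2 ratio of medians -0.41). The median neutrophil had 0.337% mitochondrially encoded UMIs in metastasis blood and 0.233% in sham blood, and 0.241% in metastasis lung and 0.319% in sham lung. In blood the 75th percentiles were 0.537% and 0.411%, while the 95th percentiles were 0.95% and 2.59%. Metastasis blood neutrophils therefore lay above sham neutrophils over most of the distribution and below them in its upper tail. The tail cells had a median of 3192 UMIs in sham blood against 2971 in the other neutrophils there, and 2124 against 2505 in metastasis blood. Cells with 2 or more distinct markers of a single other class were 4 of 8 tail cells in metastasis lung, 0 of 4 in sham lung, 2 of 30 in metastasis blood and 3 of 24 in sham blood. Among the other neutrophils they were 41 of 1118, 1 of 37, 83 of 2239 and 20 of 398. S100a8 was lower in the tail cells of each library, for example 23759 against 29151 CPM in sham blood and 50856 against 86482 in metastasis lung. Csf3r, a gate marker of neutrophils, was higher in the tail cells of metastasis lung (1098 against 870 CPM), sham lung (1907 against 1261) and metastasis blood (3156 against 1630). In sham blood Csf3r was 3574 against 3636 CPM.

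**Figure D3:**
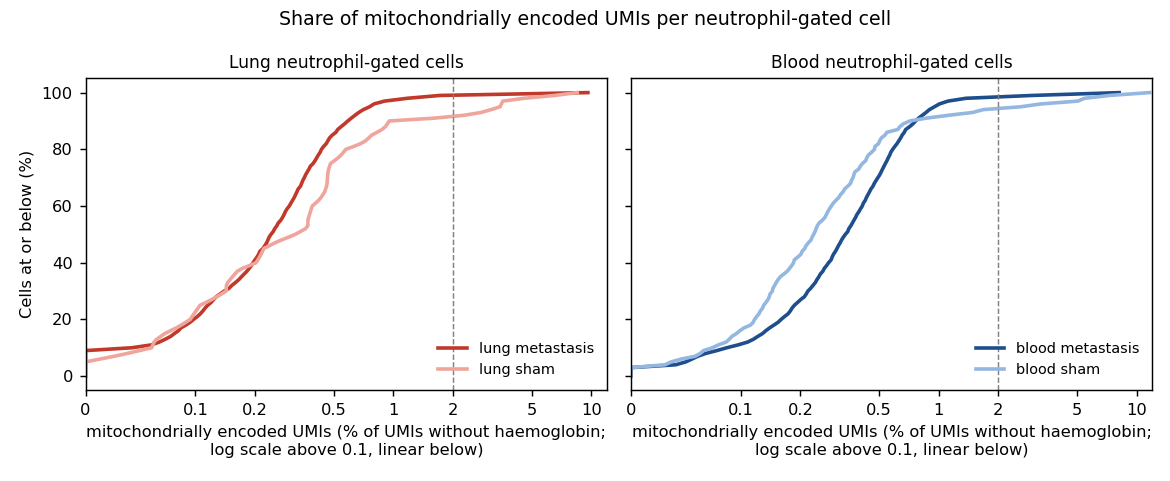
Cumulative share of neutrophil-gated cells (vertical axis, %) at or below a given share of mitochondrially encoded UMIs (horizontal axis, % of UMIs without haemoglobin, log scale above 0.1) in lung (left) and blood (right); the dashed line is 2%. In blood the metastasis curve lies to the right of the sham curve over most cells, with medians of 0.337% and 0.233%. A larger share of sham than of metastasis cells lies beyond the line, with 5.69% against 1.32% in blood and 9.76% against 0.71% in lung.

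The make-up of the mitochondrial transcripts also differed between neutrophils and B and T cells. mt-Co1 made up 12.7% to 14.7% of the mitochondrially encoded UMIs in B and T cells of all 4 libraries. In neutrophils its share was 32.3% in metastasis lung, 29.5% in metastasis blood, 21.6% in sham lung and 18.9% in sham blood. In the tail cells above 2% the mt-Co1 share was 17.7%, 12.95%, 14.5% and 14.4%, for metastasis lung, sham lung, metastasis blood and sham blood, near that of lymphocytes. In the neutrophils up to 2% it was 33.3%, 31.3%, 30.9% and 23.3% in the same order. The lung libraries were then close to each other, and sham blood remained lowest. The shares of mt-Nd1, mt-Nd2 and mt-Nd3 together ran the other way, with 4.51% to 6.63% in neutrophils up to 2% and 9.47% to 14.1% in the tail cells.

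As a level, mt-Co1 was the measured mitochondrially encoded member whose ratio was negative in lung and positive in blood neutrophils. It had 1136 CPM in metastasis lung and 1519 in sham lung (log2 ratio -0.42, -0.67 to -0.16), and 1364 CPM in metastasis blood and 1096 in sham blood (0.32, 0.24 to 0.40). Among the cells up to 2% mt-Co1 had 1104 and 1139 CPM in lung and 1318 and 720 CPM in blood. In lung 7 of the 9 measured mitochondrially encoded members were called lower, where 6.16% of all measured genes were, led by mt-Nd1 (72.3 against 235 CPM, log2 ratio -1.70). In blood mt-Nd1, mt-Nd2 and mt-Nd3 were called lower of 10 measured, where 17.1% of all measured genes were, with mt-Nd3 at 31.7 against 93.4 CPM (-1.56, -1.88 to -1.23). Among the cells up to 2%, 0 of 8 measured were called in lung (3.65% of all measured genes were called higher and 6.05% lower). In blood 1 of 10 was called higher and 0 lower (16.7% and 17.1%).

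**Figure D4:**
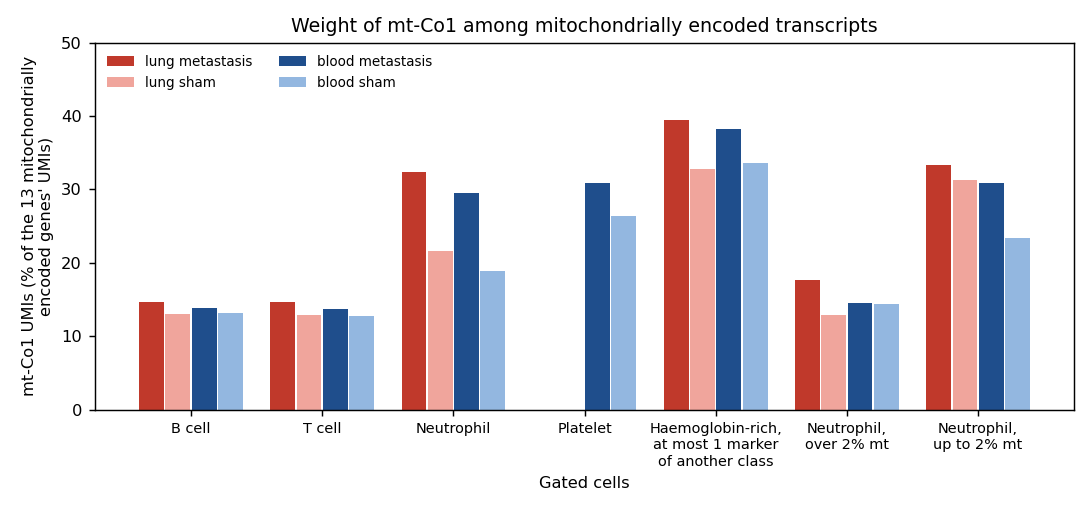
Share of mt-Co1 in the UMIs of the 13 mitochondrially encoded genes (%) by gated class and library, with neutrophils also split at 2% mitochondrially encoded UMIs per cell. Lymphocyte bars lie between 12.7% and 14.7%, neutrophils up to 2% between 23.3% and 33.3%, and haemoglobin-rich barcodes with at most 1 marker of another class between 32.7% and 39.5%.

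Nuclear-encoded members that were higher in blood neutrophils came from all 5 complexes. Of 73 measured members 28 were called higher, where 16.4% of all measured genes were, and 1 was called lower, where 17.1% were. By complex the members called higher were 16 of 32 in complex I, 1 of 4 in complex II, 3 of 8 in complex III, 4 of 12 in complex IV and 4 of 17 in complex V. The set log2 ratio was 0.60 in complex I, 0.30 in complex II, 0.53 in complex III, 0.46 in complex IV and 0.27 in complex V. The median measured member stood at 0.53 and the median of all measured genes at -0.02. Of the measured cytosolic ribosomal protein genes 43 of 89 were called higher and 3 lower, with 0.46 for their sum.

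In complex I the highest members were Ndufa11, an accessory subunit, at 40.6 CPM in metastasis and 7.41 in sham blood (270 and 10 UMIs, log2 ratio 2.45, 1.55 to 3.53), and Ndufv3, an accessory subunit of the NADH-binding module, at 82.3 and 20.8 CPM (1.99). Ndufc2 followed with 19.1 and 5.19 CPM (1.88, 0.79 to 3.22) on 7 sham UMIs, and Ndufa8, an accessory subunit, had 138 and 40.8 CPM (1.76). In complex II Sdhb, the iron-sulfur subunit, had 88.3 and 33.4 CPM (1.41, 0.97 to 1.88), while Sdha, the flavoprotein subunit it binds, was the 1 member called lower, at 48.5 and 77.8 CPM (-0.68, -1.0 to -0.35). The messages of these partner subunits of 1 enzyme therefore ran in opposite directions. In complex V the c-subunit genes Atp5g1 (43.7 and 17.8 CPM) and Atp5g3 (50.5 and 24.5 CPM) were called higher, as was Atp5o (50.2 and 17.8 CPM), a stalk subunit.

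In complex IV the members called higher were Cox4i1, Cox5b, Cox6c and Cox6b2. Cox4i1, the common form of subunit 4, had 610 CPM in metastasis and 336 in sham blood neutrophils (0.86, 0.72 to 1.01) and 388 and 212 CPM in lung, where it was called as well (0.87, 0.22 to 1.61). In lung 2 of 48 nuclear-encoded members were called higher, where 3.54% of all measured genes were, and 0 lower. The other was Atp5a1, the alpha subunit of complex V, on 143 metastasis UMIs and 1 sham UMI (2.52, 0.02 to 7.84).

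**Figure D5:**
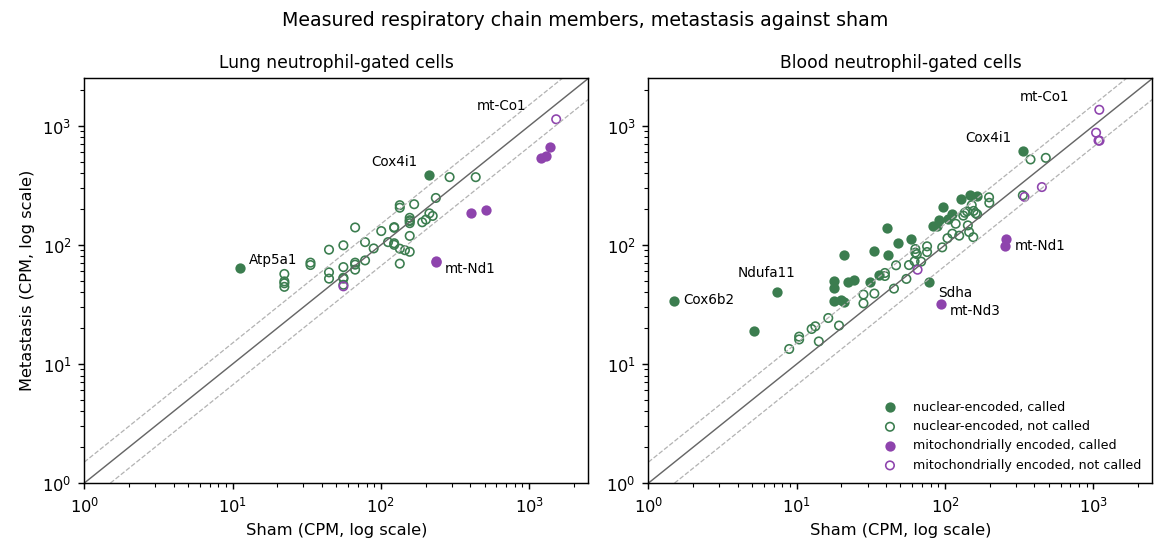
CPM in metastasis (vertical) against sham (horizontal), both log scales, for each measured member in neutrophil-gated cells of lung (left) and blood (right); filled points are called at 1.5-fold or more, dashed lines mark 1.5-fold. In blood most green points (nuclear-encoded) lie above the diagonal, Sdha is the filled green point below it, and mt-Co1 is the highest purple point.

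Within metastasis blood neutrophils the nuclear-encoded set was higher in cells with granule genes. Ngp, Camp and Ltf encode proteins of the secondary granules that form while neutrophils mature in the marrow, and Chil3 is also known from immature cells. Cells with 3 or more UMIs of these 4 genes made up 58.6% of metastasis blood neutrophils (1329 cells) and 0.711% of sham blood neutrophils (3 cells). Such counts were found in 0 of 567 and 1 of 2382 T cells of the same libraries (0.042%), at median UMIs of 3789 and 5518 against 2496 and 2987 in neutrophils. Within metastasis blood the nuclear-encoded set was 9719 CPM (9630 to 9810) in the granule-gene cells and 6969 CPM (6855 to 7085) in the others, a log2 ratio of 0.48. The split by UMIs also selects deeper cells, with a median of 3052 against 2090 UMIs in metastasis blood and 2742 against 1270 in metastasis lung, and the part of depth was not tested. In that contrast 36 of 72 measured nuclear-encoded members were called higher and 0 lower, where 14.8% and 14.3% of all measured genes were.

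Compared with sham over the cells with under 3 such UMIs alone (940 and 419 cells), the nuclear-encoded set was 6969 against 6439 CPM. That is a log2 ratio of 0.11 (0.08 to 0.15), and 3 of 53 measured members were called higher and 1 lower, where 7.0% and 9.88% of all measured genes were. Ndufa11 then stood at 5.9 CPM in metastasis and 6.79 in sham, on 12 and 9 UMIs, against 55.8 CPM in the granule-gene cells of metastasis blood. Ndufv3 was at 37.4 and 21.1 CPM, Ndufa8 at 71.8 and 40.8, and Cox4i1 at 473 and 328. Sdha stayed lower, at 52.1 against 76.2 CPM. Ltf is also a marker of the neutrophil gate, and this split was chosen after the values were seen.

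In lung the granule-gene cells were 42.7% of metastasis neutrophils (481 cells) and 29.3% of sham neutrophils (12 cells). Their nuclear-encoded set was 7074 CPM against 6035 in the other cells of metastasis lung, and 6859 against 5211 in sham lung. The mitochondrially encoded set was also higher in the granule-gene cells of metastasis libraries, with 3913 against 2877 CPM in lung and 4816 against 4205 in blood. Over the lung neutrophils with under 3 granule-gene UMIs (645 and 29 cells), 1 of 20 measured nuclear-encoded members was called higher and 5 of 6 mitochondrially encoded ones lower, where 4.11% and 6.2% of all measured genes were.

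Cox6b2, the alternative form whose upstream sequence is printed above, had the highest ratio of any member in blood neutrophils, at 34.0 CPM in metastasis and 1.48 in sham (226 and 2 UMIs, log2 ratio 4.52, 2.65 to 7.57). Of the 226 UMIs of Cox6b2, 225 were in neutrophils that also carried 3 or more UMIs of platelet markers (78.9 CPM over 925 cells). The 1344 metastasis blood neutrophils with fewer platelet UMIs held 1 UMI (0.263 CPM). Platelet-gated barcodes of the same library had 990 CPM of Cox6b2 (96 UMIs) and those of sham blood 33.1 CPM (6 UMIs). The Cox6b2 signal of blood neutrophils was thus carried by barcodes that also held platelet RNA. Metastasis lung neutrophils, of which 0% carried 3 or more platelet UMIs, held Cox6b2 too. It had 11.0 CPM (15 UMIs) in their granule-gene cells and 14.0 CPM (12 UMIs) in the others, and 0 UMIs in sham lung neutrophils. The source of the lung UMIs was not tested. In sham blood, 37.2% of neutrophils carried 3 or more platelet UMIs, against 40.8% in metastasis blood, and they held 2 Cox6b2 UMIs. Without platelet-carrying cells the nuclear-encoded set ratio was 0.43 and 25 of 65 measured members were called higher and 1 lower, where 13.7% and 22.5% of all measured genes were. In the platelet-carrying cells it was 0.48, with 26 of 63 called higher and 0 lower (17.3% and 15.4%). Platelet marker UMIs summed to 3798 CPM in metastasis and 1406 CPM in sham blood neutrophils. The mitochondrially encoded set was -0.10 (-0.15 to -0.05) with and -0.52 (-0.57 to -0.47) without platelet UMIs.

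In platelet-gated barcodes of blood (107 and 224) the nuclear-encoded set was 22355 CPM in metastasis and 11154 in sham (log2 ratio 1.0, 0.91 to 1.09). Of 12 measured members 7 were called higher and 0 lower, where 20.9% and 23.1% of all measured genes were. The mitochondrially encoded set was 16815 and 14601 CPM (0.20, 0.11 to 0.29), with 0 of 6 called.

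Barcodes with over 50% haemoglobin UMIs had high levels of the nuclear-encoded set in the metastasis arm. Many of them in the sham arm carried markers of another class: 1530 of 2138 in lung and 559 of 738 in blood, against 1021 of 6309 and 545 of 3435 in metastasis. Among those with at most 1 marker of any other class, a limit set after the values were seen, the nuclear-encoded set had 45296 CPM in metastasis lung (5288 barcodes) and 18784 in sham lung (608). In blood it had 39717 CPM (2890 barcodes) and 12626 (179). The log2 ratios were 1.27 (1.24 to 1.30) and 1.65 (1.59 to 1.72). The median of all measured genes in these barcodes was itself above 0, at 0.31 in lung and 1.15 in blood. Of the measured members 58 of 71 were called higher in lung, where 33.1% of all measured genes were, and 62 of 62 in blood, where 57.5% were. None was called lower, against 14.5% and 9.74% of all measured genes.

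Both forms of subunit 6b were detected in these haemoglobin-rich barcodes. Cox6b2 had 2199 CPM in metastasis lung, 475 in sham lung, 757 in metastasis blood and 312 in sham blood, against 926, 206, 560 and 114 CPM for Cox6b1. Cox4i1 had 2272 and 478 CPM in lung and 2219 and 223 in blood. The mitochondrially encoded set differed less, with log2 ratios of -0.26 in lung and 0.42 in blood, and mt-Co1 was level in lung at 10795 and 10760 CPM and called higher in blood at 11513 and 7575. mt-Nd1 was called lower in both tissues (253 against 694 CPM in lung, 251 against 433 in blood).

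Lung epithelial-gated barcodes gave the largest difference of the mitochondrially encoded set. It summed to 4056 CPM over 91 metastasis barcodes and 18149 CPM over 53 sham barcodes, a log2 ratio of -2.16 (-2.24 to -2.09). All 10 measured members were called lower, where 11.8% of all measured genes were called lower and 5.59% higher. The nuclear-encoded set was level, at 10948 and 11220 CPM (-0.04). In metastasis lung 69 of the 91 barcodes (75.8%) had 0 mitochondrially encoded UMIs, at a median of 4318 UMIs for the class, and in sham lung 18 of 53 (34.0%), at a median of 2379. In those 69 barcodes Scgb1a1, the secretory protein of club cells, made up 75% of the UMIs and Malat1, a nuclear RNA of nearly all cells, 0.0116%. In the 22 barcodes with mitochondrially encoded UMIs the figures were 56.2% and 0.331%, and their set level was 15926 CPM. In sham lung the 35 barcodes with mitochondrially encoded UMIs had 25084 CPM. This split acts on the measured quantity itself, so these levels are a description only.

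Other mitochondrial gene lists gave a reference for blood neutrophils. Of the mitochondrial ribosomal proteins 9 of 30 measured were called higher and 1 lower. Of the carriers and channels, a list that includes cytochrome c (Cycs), 3 of 7 were called higher: Vdac1, Vdac2 and Cycs. Of the citric acid cycle enzymes 1 of 10 was called higher. These counts stand beside 16.4% of all measured genes called higher and 17.1% lower in these cells. Of the assembly factors of the chain 0 of 12 were called, and of the genes of mitochondrial transcription and RNA processing 1 of 6 was called lower. The median log2 ratios were 0.37, 0.30, 0.21, 0.10 and -0.17 in that order, against 0.53 for the nuclear-encoded subunits. In lung T cells, where 0.874% of all measured genes were called higher and 0.175% lower, 0 members of these lists were called, of 76 mitochondrial ribosomal proteins, 8 carriers, 16 citric acid cycle enzymes, 28 assembly factors and 11 transcription and RNA genes measured.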

How the data were processed

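The authors deposited raw UMI counts per gene and barcode, 1 matrix per library, with no normalisation. The submitters' processing notes name GRCm38.p6 and the tools Seurat 4.3.0.1, Cell Ranger 7.0.0 and R 4.3.1, with roles not given in the sources used here. Whether CD45 enrichment used kits or density centrifugation differs between the design text and the protocols.

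Counts were read in Python 3.11.15 with scipy 1.17.1, summed per library and gated class and divided by the UMIs without 10 haemoglobin genes. Mixed-marker barcodes were left ungated in place of a doublet caller. Log2 ratios carry exact conditional binomial 95% intervals, and levels exact Poisson intervals. No test across samples was possible. On simulated counts the interval and call code was checked. Classes needed 50 cells in both libraries, except lung neutrophils. The members, gene lists, marker lists and alternatives were chosen with earlier results of these data known. Named members were the 13 mitochondrially encoded ones, listed isoform pairs, and the called members with the 4 highest and 4 lowest log2 ratios among the nuclear-encoded ones, per comparison of neutrophils, classical monocytes, B, T and NK cells. Others named were picked after their values were seen. Promoter windows and symbols came from RefSeq and gene positions from GENCODE M21 (GRCm38). Alternatives covered cell filters, gates, scaling, summing and cell subsets.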

Additional observations from a re-analysis of the deposited data

Results flagged for a closer look

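mt-Co1 in neutrophil-gated cells had counting intervals on opposite sides of equality in lung and blood, as did no other measured member in the leukocyte classes compared in both tissues (haemoglobin-rich barcodes were left out). Its log2 ratio of metastasis over sham was -0.42 in lung and 0.32 in blood. With 1 library per arm and tissue the difference between the tissues was not tested, and the lung value rests on 41 sham cells.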

How the results depend on the processing

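No paired analysis was possible because each arm and tissue had 1 library and the labels carry no replicate numbers. Leaving out a replicate was not possible for the same reason.

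The mitochondrially encoded set in blood neutrophils (log2 ratio -0.33) turned to 0.53 by the median over cells and to 0.47 over cells with at most 2% mitochondrial UMIs. It was -0.46 over cells with under 3 granule-gene UMIs, -0.23 with the cap computed without haemoglobin, -0.37 without the cap, -0.40 over cells of 1000 to 4000 UMIs, -0.41 by the mean over cells, -0.21 without cells over 5% haemoglobin and -0.52 without platelet-carrying cells. The same set in lung neutrophils (-1.0) was -1.28 over cells of 1000 to 4000 UMIs, -1.19 by the mean and -0.41 by the median over cells, -0.13 at or below 2%, -1.27 with under 3 granule-gene UMIs, -0.83 without cells over 5% haemoglobin and -1.12 without cells with 2 or more markers of any other class. The median over the other blood leukocyte classes (-0.15) was -0.20 under the stricter gate and -0.24 over cells of 1000 to 4000 UMIs. Without cells with 2 or more markers of any other class it was -0.21.

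The nuclear-encoded set in blood neutrophils (0.45) was 0.33 over cells of 1000 to 4000 UMIs, 0.38 by the mean and 0.42 by the median over cells, and 0.11 with under 3 granule-gene UMIs, where the count called higher fell from 28 to 3. Over the other blood leukocyte classes (0.08) it was -0.090 over cells of 1000 to 4000 UMIs and 0.032 when scaled by the median gene ratio. Without cells with 2 or more markers of any other class it was 0.011. The 1 member called lower in blood neutrophils was 0 over cells of 1000 to 4000 UMIs. In lung neutrophils the 2 called higher became 1 with at least 400 genes, under the stricter gate, over cells of 1000 to 4000 UMIs, with under 3 granule-gene UMIs and without cells with 2 or more markers of any other class. The count called lower there rose from 0 to 2 of 48 at or below 2%, where 6.05% of all measured genes were called lower. It rose to 1 without the CPM minimum. Shares over all measured genes were not computed for the gene minimum, the stricter gate, the depth range, the marker limit or the CPM minimum.

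In blood non-classical monocytes Atp5g2 turned to -1.57 over cells of 1000 to 4000 UMIs and to -0.15 without cells with 2 or more markers of any other class, and Uqcrb to -0.35 over cells of 1000 to 4000 UMIs, on 26 to 65 cells. The causes were not tested. Of 382 values of named members under alternatives, 377 kept their direction. This tally left out the median over cells, the granule-gene split and the 2% limit, under which single members were not scored. Ndufa11, for example, was at 5.9 CPM in metastasis and 6.79 in sham over blood neutrophils with under 3 granule-gene UMIs. The alternatives by the median over cells, the depth range, the marker limit, the granule genes and the 2% limit were chosen after the data were seen. Depth limits sham lung neutrophils most, with 629 mitochondrially encoded UMIs.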
